A study of Mus musculus with 9 samples.

Results

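The V (variable) and C (constant) segments of the T cell receptor were followed by RNA sequencing in activated CD8+ T cells of C57BL/6 mice. The members were the gene rows of the deposited count table whose symbol begins with Trav, Trbv, Trgv, Trdv, Trac, Trbc, Trgc or Trdc, which gave 174 of 53679 rows. They comprised 128 Trav, 35 Trbv, 6 Trdv and 1 Trgv row, with Trac, Trbc1, Trbc2 and Trdc. No row had a symbol beginning with Trgc, since the table names the gamma constants Tcrg-C. The study compared Tc0 cells, Tc0 cells treated with CoA (coenzyme A, made in cells from vitamin B5 and a carrier of acyl groups), and Tc22 cells, a name used for CD8+ T cells that secrete interleukin-22. Per the labels, the cells were activated for 3 days with CoA or vehicle, and the Tc0 and Tc22 groups other than Tc0+CoA were untreated. All 3 groups shared the C57BL/6 strain, and the labels name no receptor transgene and give neither the animals' age or sex nor the culture conditions. Each group held 3 libraries, 1 from each of the mice numbered 715, 725 and 728, so that every mouse gave all 3 populations. A library is named here by group and mouse, as CoA 715 for the Tc0+CoA library of mouse 715.

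A T cell receptor is a pair of chains, alpha with beta or gamma with delta. Each chain's V region is assembled in the thymus by joining 1 V segment to J and, in beta and delta, D segments, and the joined gene is spliced to the constant segment. A mature CD8+ T cell usually carries 1 productive beta chain, so that the V segments read in a population bear on which clones it holds. They do so only as far as V reads are counted. The delta locus lies inside the alpha locus, between most of the alpha V segments and Trac, and is cut out of a chromosome when that chromosome joins an alpha V segment. The receptor is displayed with the CD3 proteins, which carry its signal into the cell.

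Total counts ran from 21841034 to 36254631 per library, of which 20162 to 38715 fell on receptor rows (0.0762% to 0.107%). Of the 174 members, 144 had at least 1 count and 30 were at 0 in all 9 libraries. The filter on low counts was passed by 47 members (22 Trav, 16 Trbv, 4 Trdv, Trgv2 and the 4 constants). The other 127 were not tested as rows and enter only the sums by class and family. The annotation marks 34 of the V segments as pseudogenes, which held 0.0829% of the members' counts. 12 of these had a count and 1, Trav8-2, passed the filter. The labelled cell type was checked with its markers. The 6 CD8 T cell markers summed to 1883 to 2752 CPM (counts scaled to library size after TMM) and the 4 CD4 T cell markers to 8.66 to 16.3 CPM. Of the markers of gamma delta T cells that are no receptor genes, Sox13, Blk and Cd163l1 summed to 0.22 to 3.17 CPM. Of the B cell list, Ighm reached 66.1 to 377 CPM, Cd79b 5.82 to 11.7 CPM and Igkc 0.346 to 7.82 CPM, while Cd79a, Ms4a1 and Pax5 stayed under 1 CPM. The macrophage and dendritic cell list summed to 5.19 to 6.60 CPM in Tc0, 5.57 to 12.7 with CoA and 6.99 to 7.92 in Tc22 cells. Of its 5 genes, 1 was called higher with CoA, and 1 higher and 2 lower in Tc22 than with CoA. The NK cell list, nearly all of it Eomes, summed to 18.2 to 29.1 CPM in Tc0, 37.9 to 48.4 with CoA and 4.35 to 7.34 in Tc22 cells. Its other genes, Klrb1c, Ncr1, Klra4 and Klra8, stood at 0.894 CPM or less in every library. The sum thus follows Eomes and cannot show whether NK cells differed. The immature thymocyte list, nearly all of it Dntt, summed to 16.1 to 73.7, 9.43 to 23.1 and 17.7 to 46.2 CPM. In this list Ptcra, at 0.0958 to 1.99 CPM, was called higher with CoA than in Tc0. Dntt was not called there, with a log2 change of -1.45 ± 0.50 (edgeR adjusted p = 0.0599). In the CD4 list 1 gene was called higher with CoA than in Tc0. Cd4, which is in both lists, was the gene called higher in Tc22 than in Tc0 in each. In each list, 1 gene was called lower in Tc22 than with CoA. Of the 2 NK genes tested, Eomes was called higher with CoA and lower in Tc22, both against Tc0. In Tc22 against Tc0+CoA, Klrb1c was called higher and Eomes lower. The part of such cells in the receptor changes was not tested.

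2 V segments led in every library. They are shown beside their relatives because the copies are so alike that reads could be assigned to the wrong one. The sequences and positions are from GENCODE M21 (GRCm38) and run 5′ to 3′ on the plus strand, and capitals mark the bases at which the members of a pair differ. The last 300 coding bases of Trav14-1 (chr14:53554259-53554558, in the second exon) were set against those of Trav14d-1 (chr14:52855867-52856166), its copy in another repeat of the alpha locus. They differ at 13 bases here and at 16 of 364 over the coding sequence.
Trav14-1: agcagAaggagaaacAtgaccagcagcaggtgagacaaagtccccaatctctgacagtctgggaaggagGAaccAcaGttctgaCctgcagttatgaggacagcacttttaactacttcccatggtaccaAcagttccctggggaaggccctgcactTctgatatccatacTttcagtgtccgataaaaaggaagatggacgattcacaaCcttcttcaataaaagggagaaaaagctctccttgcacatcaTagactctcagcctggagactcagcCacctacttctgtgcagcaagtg
Trav14d-1: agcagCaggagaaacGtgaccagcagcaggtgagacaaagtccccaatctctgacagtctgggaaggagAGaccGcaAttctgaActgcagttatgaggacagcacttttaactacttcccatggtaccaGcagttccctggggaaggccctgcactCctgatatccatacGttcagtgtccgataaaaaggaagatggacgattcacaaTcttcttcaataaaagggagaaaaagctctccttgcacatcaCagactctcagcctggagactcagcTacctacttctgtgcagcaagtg
The second coding exon of Trbv13-3 (chr6:41130292-41130585) was set against that of Trbv13-2 (chr6:41121539-41121832), the nearest relative in its family. They differ at 24 of these 294 bases and at 32 of 340 over the coding sequence.
Trbv13-3: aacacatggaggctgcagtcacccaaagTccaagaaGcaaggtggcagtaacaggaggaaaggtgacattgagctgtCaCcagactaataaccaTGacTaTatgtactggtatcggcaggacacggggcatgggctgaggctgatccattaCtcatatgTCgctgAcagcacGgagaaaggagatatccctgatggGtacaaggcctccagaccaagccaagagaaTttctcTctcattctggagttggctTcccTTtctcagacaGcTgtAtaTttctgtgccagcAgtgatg
Trbv13-2: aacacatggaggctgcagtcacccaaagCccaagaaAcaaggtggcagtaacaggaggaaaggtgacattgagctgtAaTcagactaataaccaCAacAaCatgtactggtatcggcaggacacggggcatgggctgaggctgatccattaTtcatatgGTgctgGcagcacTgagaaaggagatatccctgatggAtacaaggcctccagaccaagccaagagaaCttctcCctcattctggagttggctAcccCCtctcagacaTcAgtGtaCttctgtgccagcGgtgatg
The beta constants Trbc1 and Trbc2 are far closer. In the 375 coding bases of their first exons a single base differs, and the 121 bases around it are shown (chr6:41538417-41538537 and chr6:41546929-41547049).
Trbc1: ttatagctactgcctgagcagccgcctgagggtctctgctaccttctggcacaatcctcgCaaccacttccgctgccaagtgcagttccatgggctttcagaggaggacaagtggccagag
Trbc2: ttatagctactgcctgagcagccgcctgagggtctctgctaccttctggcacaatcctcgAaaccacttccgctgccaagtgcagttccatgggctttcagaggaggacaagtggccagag
Over the whole coding sequence they differ at 23 of 518 bases, so the split of counts between Trbc1 and Trbc2 is less certain than their sum. Trav14n-1 has the same coding sequence as Trav14d-1, and their counts were equal in all 9 libraries. 14 pairs of Trav rows had equal counts in all 9 libraries, of which 12 share a coding sequence. Such rows are uncertain one by one. In 13 of the pairs both rows belong to 1 family, so that family and class sums do not depend on how their reads were split. The other pair, Trav6n-5 and Trav13d-3, held 2 counts each.

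Trav14-1, a member of the family known as V alpha 2 in antibody-based naming, held most of the alpha V counts. Its share of Trav counts was 61.0, 59.9 and 60.7% in Tc0 cells of mice 715, 725 and 728. With CoA it was 47.1, 66.2 and 60.3%, and in Tc22 cells 66.6, 64.5 and 64.5%. The library of mouse 715 with CoA was the lowest of the 9, and the 3 Tc22 libraries lay above the 3 Tc0 libraries. The exact binomial 95% interval of the lowest share ran from 44.0 to 50.2% (480 of 1019 counts) and that of the highest from 64.7 to 68.5% (1612 of 2420 counts). Such intervals cover counting error only. Group means were 60.5% ± 0.579 for Tc0, 57.8% ± 9.75 with CoA and 65.2% ± 1.23 for Tc22 (SD, n = 3).

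Trbv13-3, known as V beta 8.1 (Tcrb-V8.1 in RefSeq), led the beta chain in the same way. Of the Trbv counts it held 58.6, 55.9 and 64.4% in Tc0 cells, 47.7, 69.2 and 65.1% with CoA, and 69.9, 64.1 and 69.4% in Tc22 cells, in the order of mice 715, 725 and 728. Here too the mouse 715 library with CoA was lowest, with an interval of 42.8 to 52.6% (196 of 411 counts). The group means were 59.6% ± 4.38, 60.7% ± 11.4 and 67.8% ± 3.19 (SD, n = 3). V alpha 2 with V beta 8.1 is, as background, the pair of the P14 receptor, a transgene against a viral peptide that is used in work on CD8+ T cells. Whether these cells held a receptor transgene was not tested.

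No other alpha or beta segment came near. The next alpha segment by mean share was Trav21-dv12 with 5.28%, so that the mean of Trav14-1 was 11.6 times as large. Of the 127 Trav rows other than Trav14-1, 8 had a mean share of 1% or more. Trav16 followed with 4%, Trav6-7-dv9 with 1.77% and the twin rows Trav14n-1 and Trav14d-1 with 1.64% each. In beta, Trbv19 came next with 5.71%, and Trbv13-3 was 11.0 times as high. 15 of the 34 other Trbv rows reached 1%, among them Trbv3 with 3.45%, Trbv15 with 3.30%, Trbv31 with 2.69% and Trbv29 with 2.39%. Trbv13-2, the close relative shown above, held 2.14%. The remaining segments were thus spread thinly over many rows, with 107 of 128 Trav and 26 of 35 Trbv rows detected at least once.

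**Figure D1:**
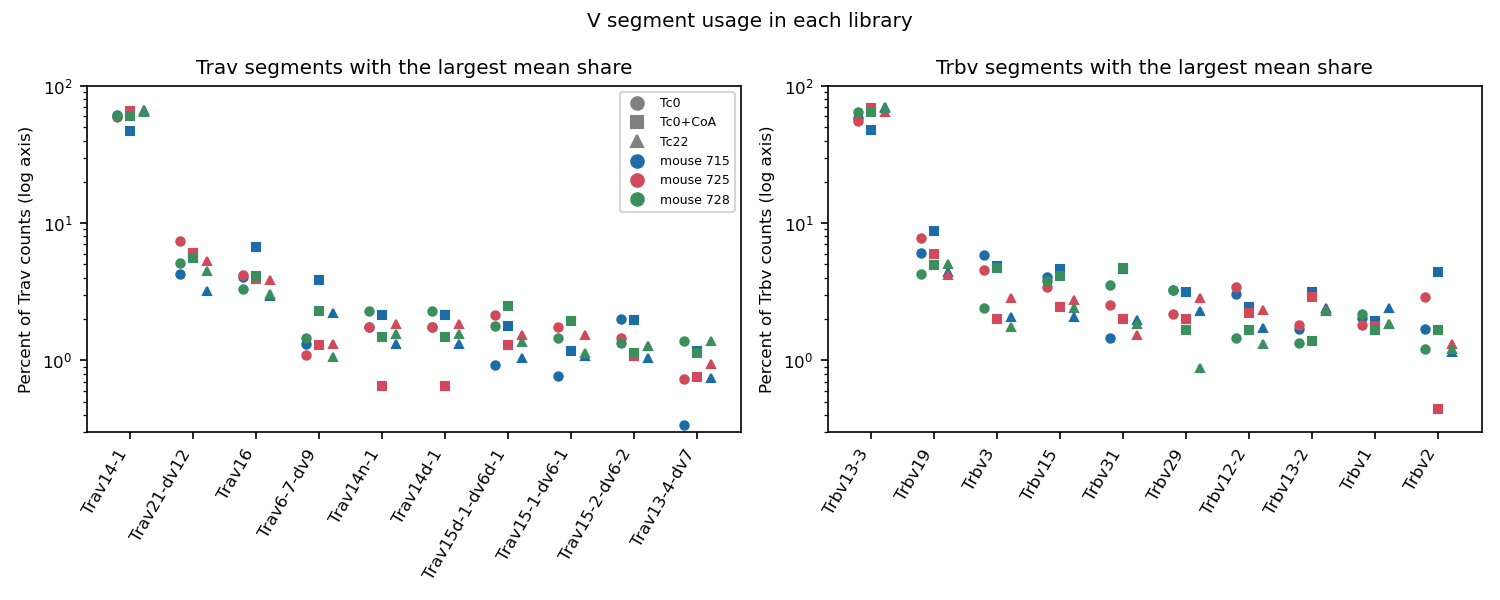
Share of each V segment in the V counts of its chain (percent, log axis) for the 10 Trav and 10 Trbv segments with the largest mean share. Each point is 1 library, with shape for the group and colour for the mouse; Trav14-1 lies between 47.1 and 66.6% and Trbv13-3 between 47.7 and 69.9%, and no other segment has a mean over 5.71%.

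Each leader lies among segments of far lower level. Trav14-1 ends 666 kb before Trac, and averaged 37.2 CPM where the segments to either side, Trav15-1-dv6-1 and Trav13-1, averaged 0.813 and 0.251 CPM. Trbv13-3 ends 408 kb before Trbc1, and averaged 14.9 CPM beside 0.163 CPM for Trbv14 and 0 counts for the pseudogene Trbv12-3. Trbv31 is the beta segment that lies beyond the constants, 20.2 kb after the start of Trbc1, and averaged 0.58 CPM. The alpha locus of this strain holds repeats, and symbols carry d or n for 2 of the copies. The 39 d-marked segments held 19.6% and the 34 n-marked segments 15.6% of the Trav counts outside Trav14-1, and the 55 without either mark 64.8%.

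**Figure D2:**
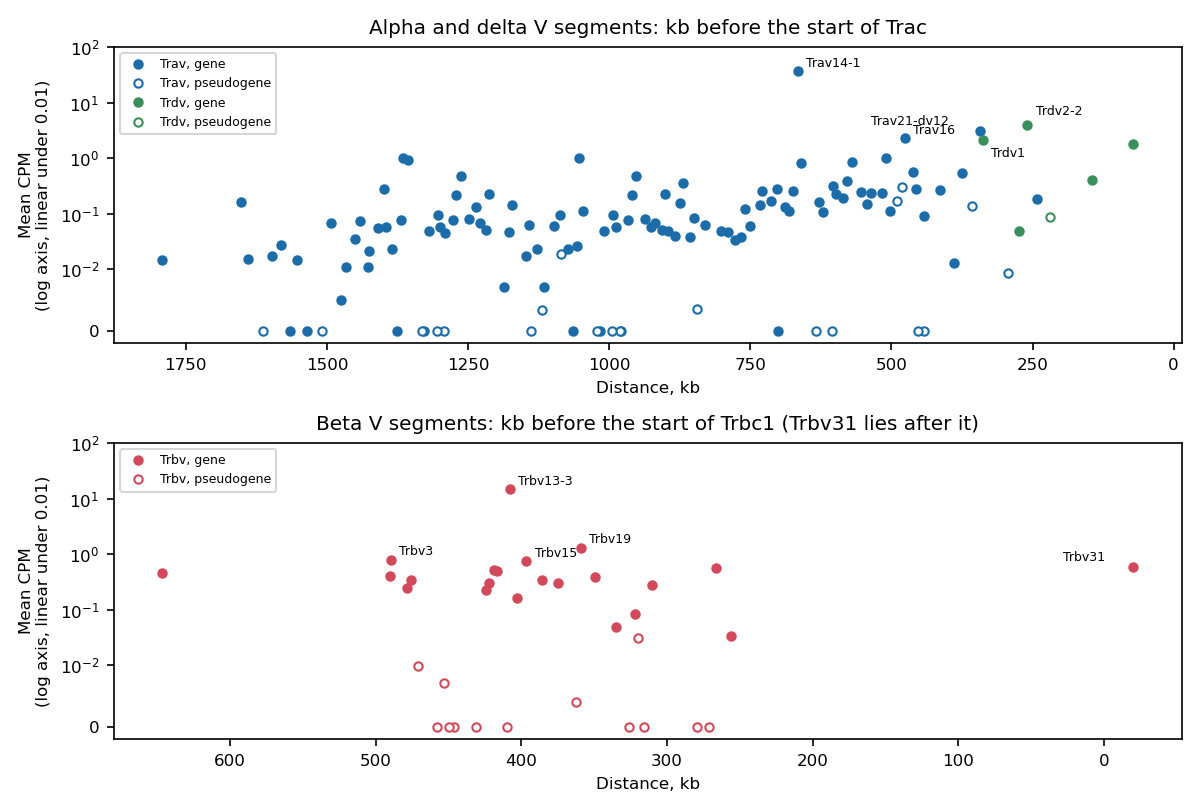
Mean level over 9 libraries (CPM, log axis that is linear under 0.01) against the distance in kb from the end of each V segment to the start of Trac (upper panel, alpha and delta) or of Trbc1 (lower panel, beta). Open points are annotated pseudogenes; Trav14-1 at 37.2 CPM and Trbv13-3 at 14.9 CPM stand above every other segment of their panel.

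The semi-invariant receptors of innate-like T cells use a few alpha segments. Trav11, used by natural killer T cells in mice, was at 0 in all 9 libraries, which allows a share of up to 0.342% of Trav counts in the shallowest library (3 counts of 878). Its copy Trav11d had 17 counts in 5 libraries, and the pseudogene copy Trav11n 5 counts in 3 libraries. Reads of such copies may have been assigned to the wrong one. The limit thus holds for counts assigned to the Trav11 row and does not bound the use of Trav11. Trav1, used by mucosal-associated invariant T cells, had 4 counts in 3 libraries.

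Delta and gamma transcripts were also present. Trdv2-2 led the delta V segments, with 47.9, 57.1 and 51.3% of Trdv counts in Tc0 cells, 44.3, 32.6 and 41.8% with CoA and 47.9, 42.7 and 47% in Tc22 cells. All 3 shares with CoA lay under the 3 Tc0 shares. These rest on 129 to 361 Trdv counts per library, and the lowest share had an interval of 24.6 to 41.4%. Trdv1 had a mean share of 25.8%, Trdv5 of 21.5%, Trdv4 of 5.10%, the pseudogene Trdv3 of 1.17% and Trdv2-1 of 0.607%. Trdv5 lies on the opposite strand and overlaps the end of the Trdc gene model, and the antisense gene Gm43434 overlaps Trdc too. Whether reads were counted by strand is not given in the sources used here, and these genes may share reads. Trgv2, the only gamma member, stood between 1.28 and 3.59 CPM, beside 6.32 to 16.3 CPM for Tcrg-C2, a gamma constant outside the members.

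Among the constants, levels were compared per kb of exon. Trbc2 stood at 335 to 498 CPM per kb, Trbc1 at 262 to 382, Trac at 153 to 276 and Trdc at 20.2 to 41.7. Per kb, Trav14-1 reached 45.6 to 137 and Trbv13-3 21.9 to 60.6 CPM. The leading beta segment was thus far below Trbc1 and Trbc2 in every library. The beta V counts cover a small part of the beta transcripts, and whether V shares are shares of cells was not tested. Trdc was below Trac in every library.

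The first comparison set Tc0 cells with CoA against Tc0 cells of the same mice. Alpha V and beta V transcripts fell, alpha constant and delta transcripts fell in calls that 1 or more single libraries decided, and no change of the beta constants or of Trgv2 was called. Summed over all 128 rows, Trav stood at 74.1, 63.5 and 66.0 CPM in Tc0 cells of mice 715, 725 and 728, and at 38.6, 33.3 and 38.9 CPM with CoA. The groups did not overlap. The log2 fold change, where 1 unit is a 2-fold change, was -0.88 ± 0.10 (SE, n = 3 a group), with an adjusted p of 0.00108 in edgeR's quasi-likelihood F test, mouse as a block. The fall held without any one library (highest adjusted p 0.00847). Trav14-1 left out, the other Trav rows still summed to 28.9, 25.5 and 25.9 CPM in Tc0 cells and to 20.4, 11.3 and 15.5 CPM with CoA.

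Trbv, summed over 35 rows, fell in each mouse as well. It stood at 28.0, 25.8 and 22.7 CPM in Tc0 cells and at 15.6, 16.3 and 16.0 CPM with CoA. Every library with CoA was below every Tc0 library. The log2 fold change was -0.67 ± 0.12 (edgeR adjusted p = 0.00617), and the call held without any one library (highest adjusted p 0.0372). The Trbv rows other than Trbv13-3 summed to 11.6, 11.4 and 8.06 CPM against 8.15, 5.02 and 5.59 CPM, where CoA 715 lay just above Tc0 728.

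Trac, which encodes the constant part of the alpha chain, was at 186, 199 and 258 CPM in Tc0 cells and at 147, 143 and 167 CPM with CoA. Again the groups were apart. It fell by 0.48 ± 0.10 on the log2 scale (edgeR adjusted p = 0.00909). Leaving out CoA 728 ended the call (adjusted p = 0.0677), as did a fit with no block (0.0638).

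No such fall was called for the beta constants. Trbc1 and Trbc2 together stood at 498, 573 and 582 CPM in Tc0 cells and at 557, 490 and 567 CPM with CoA. The ranges overlapped, and 1 of 3 mice was higher with CoA. The log2 difference was -0.032 ± 0.11 (edgeR adjusted p = 0.857). Trbc1 alone gave 0.13 ± 0.10 (adjusted p = 0.389) and Trbc2 alone -0.17 ± 0.12 (adjusted p = 0.321).

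Trdc, the delta constant, was at 122, 161 and 124 CPM in Tc0 cells and at 110, 78.0 and 94.9 CPM with CoA, with no overlap. It fell by 0.52 ± 0.16 (edgeR adjusted p = 0.042). Leaving out Tc0 725, Tc0 728, CoA 725, CoA 728 or Tc22 725 ended that call (adjusted p from 0.0514 to 0.22), as did a fit with no block (0.0717). The Trdv sum was at 8.21, 10.1 and 9.76 CPM in Tc0 cells and 5.99, 4.66 and 6.47 CPM with CoA, a fall of 0.71 ± 0.18 (adjusted p = 0.0202). This ended when Tc0 725, CoA 725 or CoA 728 was left out (0.0701 to 0.113) or the block was dropped (0.0522). Trgv2 differed by -0.17 ± 0.26 (adjusted p = 0.671), from 3.36, 3.59 and 1.95 to 2.12, 2.64 and 2.88 CPM. Outside the members, the gamma V segment Tcrg-V4 was called lower with CoA (-2.86 ± 0.74, edgeR adjusted p = 0.0211). It held 13, 22 and 3 counts in Tc0 cells and 1, 4 and 0 with CoA. With so few counts with CoA, Tcrg-V4 passed the filter through Tc0 and Tc22 libraries, which favours a call of this direction. The gamma constants Tcrg-C1, Tcrg-C2 and Tcrg-C4 were not called (0.5, 0.686 and 0.598). Of gamma delta T cell markers that are no receptor genes, Sox13, Blk and Cd163l1 summed to 0.22 to 0.978 CPM in Tc0, 0.531 to 2.02 with CoA and 1.26 to 3.17 in Tc22 cells, with Sox13 and Blk at 0.542 or less in every library. Of these 3 genes 1 passed the filter, and it was called higher in Tc22 than in Tc0 and than with CoA.

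The 8 class sums include the total over all receptor rows, and those of Trac, Trdc and Trgv hold 1 row each. In all, 5 of the 8 were called lower with CoA and 0 higher, beside 12% of all rows tested that were called lower and 12.5% higher. The count was 3 without Tc0 725 or without CoA 725, 2 without CoA 728 and 2 with no block. In bulk RNA, fewer cells of a kind and less RNA per cell cannot be told apart. The sum over all receptor rows moved by -0.25 ± 0.11 (adjusted p = 0.116). Within that sum the beta constants took 54.1, 55.3 and 54.7% in Tc0 cells, 63.6, 63.8 and 63.5% with CoA, and 49.5, 51.0 and 50.5% in Tc22 cells. The 3 groups did not overlap in this share. With 3 mice, an exact sign-flip test cannot give a two-sided p under 0.25.

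**Figure D3:**
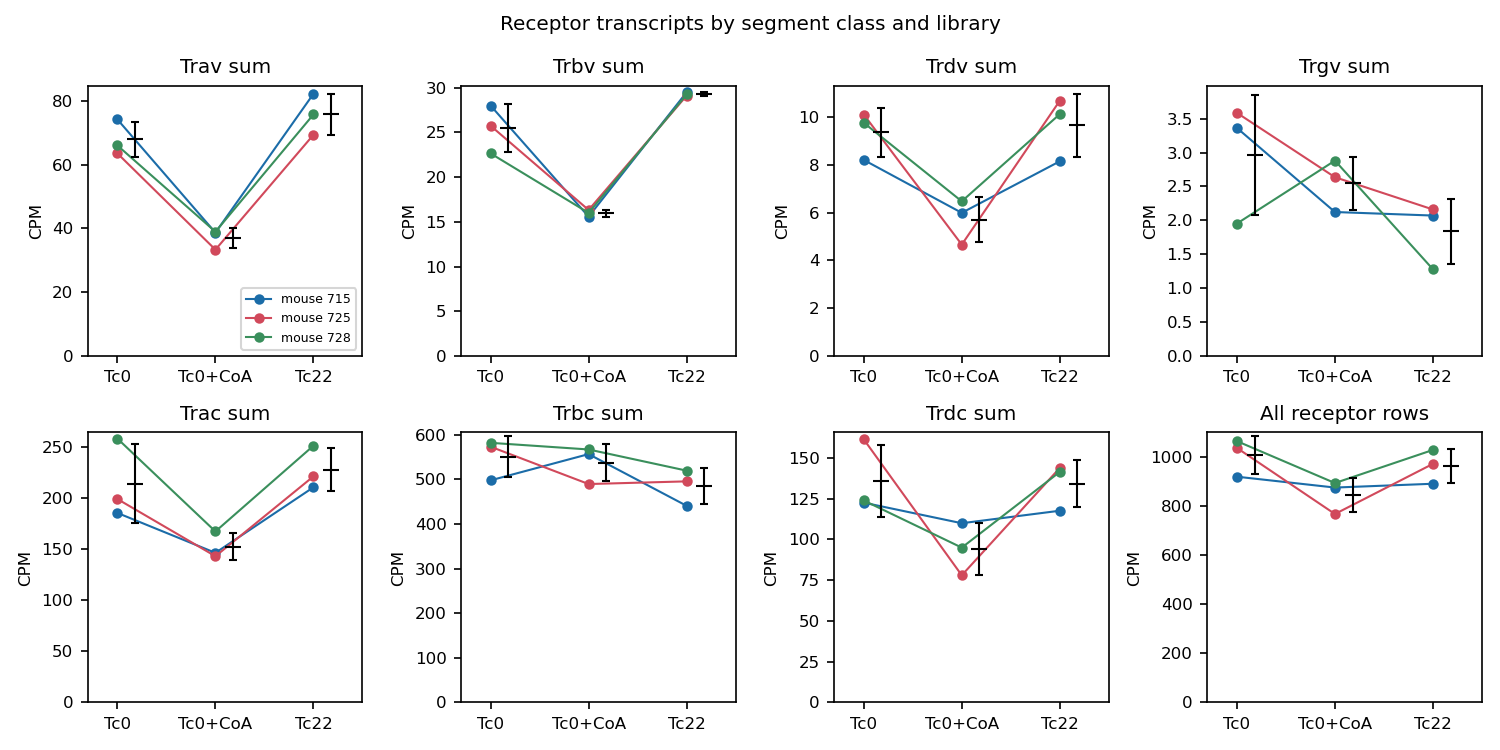
Level of each segment class and of all receptor rows (CPM) in the 9 libraries. Coloured points joined by lines are the 3 populations of 1 mouse, and black marks give the group mean ± SD; the Trav, Trbv, Trac, Trdv and Trdc panels dip at Tc0+CoA, and the Trbc panel does not.

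Row by row, 9 of the 47 members tested were called lower with CoA and 0 higher, where 12% of all 15348 rows were called lower and 24.5% in either direction. 16 were under 0.05 in p before adjustment, and 46 of 47 fitted changes were below 0. The median log2 fold change of the 47 was -0.65, against -0.0091 for all rows. The rows passed the filter partly through their level in these libraries, and these figures describe the tested rows, not all members. The 47 hold pairs with equal counts, namely Trav14d-1 with Trav14n-1, Trav6d-6 with Trav6-6, and Trav15n-2 with Trav15d-2-dv6d-2. Each pair is 1 measurement entered as 2 rows, and the first pair is among the count of 9. Without 1 library the count ran from 1 to 11, being 1 without CoA 728, 2 without Tc0 725, 3 without CoA 725 and 4 without Tc0 715. It was also 2 with no block, and 1 without all libraries of mouse 728.

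Trav14-1 was the row with the smallest p. It stood at 45.2, 38.0 and 40.0 CPM in Tc0 cells and at 18.2, 22 and 23.5 CPM with CoA, with no overlap. Its log2 fold change was -0.95 ± 0.14 (edgeR adjusted p = 0.00305) and the call held without any one library (highest adjusted p 0.0159). Trbv13-3 was at 16.4, 14.4 and 14.6 CPM against 7.43, 11.3 and 10.4 CPM with CoA. It fell in each mouse, by 0.65 ± 0.17 overall (adjusted p = 0.0249). That call ended without Tc0 715, Tc0 725, CoA 715 or CoA 728 (0.0676 to 0.0934), and with no block (0.0552).

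The delta segment Trdv2-2 was at 3.93, 5.78 and 5.01 CPM against 2.65, 1.52 and 2.70 CPM with CoA. The groups did not overlap, and the log2 fold change was -1.10 ± 0.26 (edgeR adjusted p = 0.0146). Tc0 725, CoA 725 and CoA 728 each ended the call when left out (0.0516 to 0.0773). Trav21-dv12, which can serve both alpha and delta chains, went from 3.18, 4.70 and 3.36 to 2.35, 2.02 and 2.17 CPM, a change of -0.75 ± 0.22 (adjusted p = 0.0321). The call ended without Tc0 715, Tc0 725, CoA 725, CoA 728 or Tc22 725 (0.0516 to 0.19), and with no block (0.0702). The twin rows Trav14d-1 and Trav14n-1 went from 1.29, 1.12 and 1.51 to 0.834, 0.217 and 0.576 CPM, a change of -1.30 ± 0.38 each (adjusted p = 0.0336). Their calls ended without any 1 of the Tc0 libraries, CoA 725 or CoA 728 (0.0544 to 0.139), and with no block (0.0757). CoA 725 held 6 counts of each, so these rows rest on few reads.

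Sums by V family do not depend on how reads were split among copies of 1 family. Of 34 families tested, 7 were called lower with CoA and 0 higher, beside 12% of all rows called lower. The Trav14 family fell from 49.4, 41.8 and 44.4 to 20.8, 22.7 and 25.4 CPM. That is a log2 fold change of -0.98 ± 0.12 (edgeR adjusted p = 0.00198), and it held without any one library (highest adjusted p 0.0114). The Trav15 family changed by -0.85 ± 0.20 (adjusted p = 0.0154), which ended without Tc0 725 or CoA 725 (0.0716 to 0.0914). The Trav7 family, at 0.108 to 1.29 CPM, changed by -1.65 ± 0.36 (adjusted p = 0.0111) with overlapping groups, and its call ended with no block (0.0908). The Trdv2 family changed by -1.08 ± 0.26 (0.0161), Trbv13 by -0.63 ± 0.17 (0.0223) and Trbv12 by -1.07 ± 0.30 (0.0278). Each of these 3 calls ended without Tc0 725 or without CoA 728. CoA 725 ended those of Trdv2 and Trbv12, Tc0 715 those of Trbv13 and Trbv12, CoA 715 that of Trbv13 and Tc0 728 that of Trbv12 (0.0529 to 0.161 over the 3). With no block, Trbv13 stood at 0.0508 and Trbv12 at 0.0948. The count of 7 was 2 without Tc0 725, 3 without CoA 725 or CoA 728, 4 without Tc0 715, and 3 with no block.

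**Figure D4:**
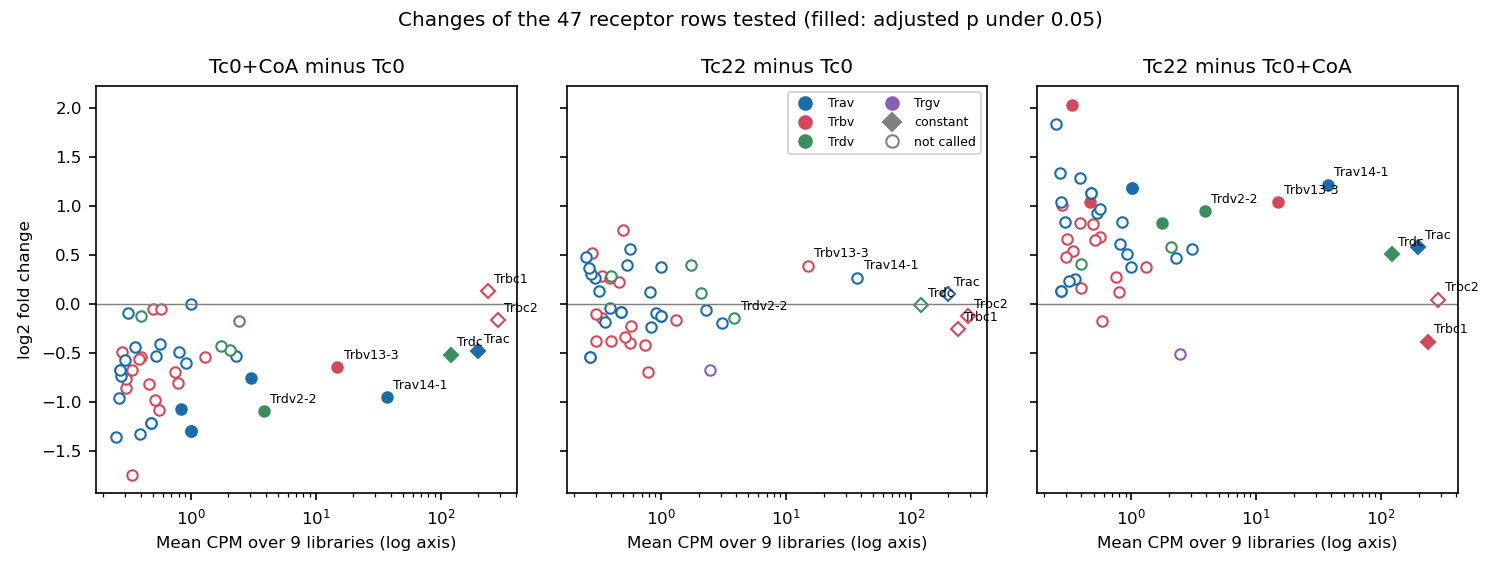
Log2 fold change of the 47 receptor rows tested against their mean level (CPM, log axis) in the 3 comparisons. Circles are V and diamonds C segments, coloured by chain and filled where the adjusted p is under 0.05; in Tc0+CoA minus Tc0, 46 of 47 lie below 0, and in Tc22 minus Tc0+CoA, 44 lie above 0. The comparisons share libraries.

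The fall of V transcripts with CoA was set against that of the constants of the same chain, a test added after the data were seen. Trbv counts per 100 Trbc counts were 5.63, 4.49 and 3.89 in Tc0 cells and 2.80, 3.33 and 2.82 with CoA, with no overlap. Scaled by the Trbc sum, Trbv changed by -0.63 ± 0.14 on the log2 scale (edgeR adjusted p = 0.0128, or 0.0517 without CoA 728). Trac against Trbc changed by -0.45 ± 0.10 (adjusted p = 0.0147, or 0.0943 without that library). Trav counts per 100 Trac counts were 39.9, 31.9 and 25.5 in Tc0 cells and 26.4, 23.3 and 23.2 with CoA. The ranges overlapped, although each mouse was lower with CoA. This ratio changed by -0.40 ± 0.11 (adjusted p = 0.0296). That call ended without Tc0 715, Tc0 725, any 1 of the CoA libraries, Tc22 715 or Tc22 725 (0.0515 to 0.14). Trdv against Trdc changed by -0.19 ± 0.15 (adjusted p = 0.389).

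The fall in level left no called change in usage. With each V row scaled by the V counts of its chain, 0 of 42 V rows were called in edgeR in any of the 3 comparisons, where 24.4% of all rows were called with CoA, 3.71% in Tc22 against Tc0 (2.5% higher) and 32% in Tc22 against Tc0+CoA. At an unadjusted p under 0.05 there were 1, 0 and 2 rows. The smallest adjusted p with CoA was 0.0943 for Trav6-7-dv9, whose mean share was 1.29% ± 0.18 in Tc0 cells and 2.47% ± 1.27 with CoA (SD, n = 3). The share of Trav14-1 changed by -0.074 ± 0.13 on the log2 scale (adjusted p = 0.719) and that of Trbv13-3 by 0.018 ± 0.16 (adjusted p = 0.945). The share of Trdv2-2, lower in each mouse, changed by -0.40 ± 0.20 (adjusted p = 0.168). A p over the threshold does not show that usage was alike, and the standard errors of these 3 were 0.13 to 0.20.

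V usage was also compared between libraries as a whole. The distance between 2 libraries, as the summed difference of their V shares in percentage points divided by 2, had a median of 11.4 for Trav within a mouse, 9.73 within a group and 11.3 for other pairs. For Trbv the medians were 12.2, 10.4 and 11.7. All 3 kinds of pair overlapped in range, for Trav from 6.57 to 24.5 and for Trbv from 5.21 to 24.0 percentage points. The values are given as a description, since pairs share libraries.

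Each joined beta gene is spliced to either Trbc1 or Trbc2. Trbc1 took 48.6, 43.7 and 40.8% of the counts of both in Tc0 cells, 51.3, 48.8 and 48.3% with CoA and 47.4, 39.6 and 39.3% in Tc22 cells. Mouse 715 was highest in each group, and every mouse was higher with CoA than in its Tc0 or Tc22 library. The group means were 44.3% ± 3.94, 49.5% ± 1.65 and 42.1% ± 4.60 (SD, n = 3). No test was run on this share, whose counts depend on how reads of the near-identical first exons were assigned.

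**Figure D5:**
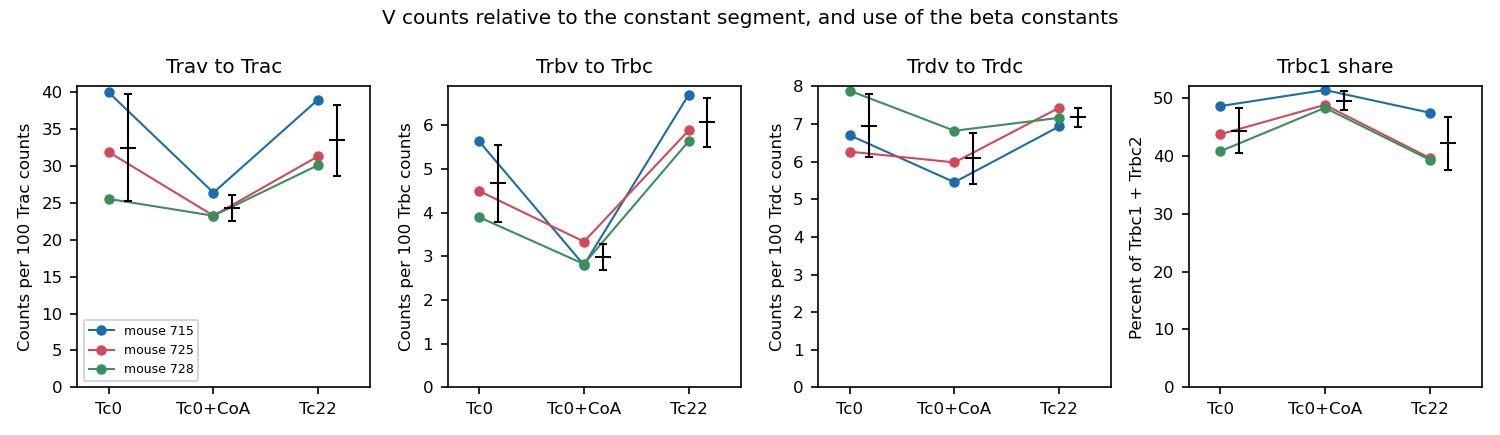
V counts per 100 counts of the constant of the same chain, and Trbc1 as percent of both beta constants, in the 9 libraries (colours and lines: mouse; black: mean ± SD). Trbv to Trbc lies between 2.80 and 3.33 at Tc0+CoA, below the other 6 libraries (3.89 to 6.69).

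Tc22 cells were compared with Tc0 cells of the same mice. No receptor transcript was called in either direction. EdgeR called 0 of 47 rows, where 3.68% of all rows were called (2.48% higher). It called 0 of 8 class sums (background 3.72%, or 2.5% higher) and 0 of 34 families (background 3.71%, or 2.5% higher). At an unadjusted p under 0.05 there were 1 class sum below 0, and 1 family above and 1 below 0, in edgeR as in DESeq2. For rows, 2 above and 2 below 0 had an unadjusted p under 0.05, and DESeq2 also called 0 rows, with 1 and 2 under 0.05 before adjustment. The medians of the log2 fold changes were -0.085 for the 47 rows and -0.0084 for all rows. Trav stood at 82.2, 69.3 and 75.7 CPM in Tc22 cells, a difference of 0.16 ± 0.10 (adjusted p = 0.36), and Trbv at 29.5, 29.1 and 29.3 CPM, a difference of 0.20 ± 0.12 (adjusted p = 0.345). Trav was higher than in Tc0 in all 3 mice with overlapping ranges, and Trbv in all 3 without overlap. Trbv13-3 was at 20.6, 18.7 and 20.3 CPM, above each Tc0 library, with a difference of 0.39 ± 0.17 (adjusted p = 0.228). Trac, at 211, 221 and 251 CPM, differed by 0.10 ± 0.10 (adjusted p = 0.586).

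The Tc22 and CoA-treated libraries were also set against each other, a comparison that shares its libraries with the other 2. Trav14-1, Trbv13-3 and Trac were among the rows higher in Tc22 cells, and Trbc1 was lower. 10 of the 47 rows tested were called higher and 1 lower, beside 16% of all rows called in each direction and 32% in either. The 10 hold the twin rows Trav14d-1 and Trav14n-1, which are 1 measurement entered as 2 rows. The median log2 fold change of the 47 rows was 0.65, and that of all rows 0.011. The count of 10 was 16 without CoA 715, 4 without CoA 725 or Tc22 725, 3 without CoA 728 and 5 without Tc22 728. It was 4 with no block and 5 in DESeq2.

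By class, Trav was higher by 1.03 ± 0.10 (edgeR adjusted p = 0.000255), Trbv by 0.87 ± 0.12 (0.0013) and Trac by 0.58 ± 0.10 (0.00275), and each of these calls held without any one library. Trdv was higher by 0.75 ± 0.18 (0.012), which ended without CoA 725 or Tc22 725 (0.0688 to 0.0761). Trdc was higher by 0.50 ± 0.16 (0.0383), which ended without CoA 725, CoA 728, Tc22 725 or Tc22 728 (0.12 to 0.186) and with no block (0.0669). These made 5 of 8 class sums, or 3 without CoA 725 or Tc22 725, beside 16% of all rows called higher. The Trbc sum differed by -0.15 ± 0.11 (adjusted p = 0.314). Outside the members, Tcrg-V4 was called higher by 3.35 ± 0.71 (edgeR adjusted p = 0.00697). It held 10, 35 and 15 counts in Tc22 cells. As stated above, it passed the filter through libraries without CoA, which favours this call too. Tcrg-C2 (-0.56 ± 0.18, 0.0405) and Tcrg-C4 (-0.80 ± 0.25, 0.03755) were called lower, and Tcrg-C1 was not called (0.655).

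Of the rows, Trav14-1 was higher by 1.21 ± 0.14 (edgeR adjusted p = 0.000585) and Trbv13-3 by 1.04 ± 0.17 (0.00268), both also without any one library. Trdv2-2 was higher by 0.95 ± 0.26 (0.0196), which ended without CoA 725, CoA 728 or Tc22 725 (0.0598 to 0.089). Trdv5 was higher by 0.82 ± 0.23 (0.0238), which ended without any of the same 3 libraries (0.0928 to 0.15) and with no block (0.0915). Trbv16, with 0 to 18 counts per library, was higher by 2.03 ± 0.63 (0.0345), which ended without CoA 725, CoA 728 or any 1 of the Tc22 libraries (0.0649 to 0.13) and with no block (0.066). Trbc1 was the row called lower, at 209, 196 and 204 CPM in Tc22 cells against 286, 239 and 274 CPM with CoA. No Tc22 library reached a CoA library, and the log2 fold change was -0.39 ± 0.10 (adjusted p = 0.0167). The call ended without CoA 728 or any 1 of the Tc22 libraries (0.0526 to 0.103).

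Of the 34 families, 9 were called higher in Tc22 than with CoA and 0 lower, beside 16% of all rows called higher. The Trav14 family was higher by 1.21 ± 0.12 (edgeR adjusted p = 0.000367) and the Trbv13 family by 1.02 ± 0.17 (0.00237), and both held without any one library. Trav13 was higher by 1.21 ± 0.29 (0.0125) and Trav7 by 1.38 ± 0.36 (0.0175), calls that ended without CoA 725, CoA 728 or Tc22 725 (0.0521 to 0.0785), the latter also with no block (0.148). Trdv2 was higher by 0.93 ± 0.26 (0.0218), which ended without CoA 725, CoA 728 or any 1 of the Tc22 libraries (0.0518 to 0.0976) and with no block (0.0522). The Trdv5 family is the row Trdv5 alone, described above. The count of 9 was 2 without CoA 725, CoA 728 or Tc22 725, 5 without Tc22 728, 4 with no block and 5 in DESeq2. Scaled by the Trbc sum, Trbv was higher by 1.02 ± 0.14 (adjusted p = 0.00131), since it stood at 6.69, 5.88 and 5.63 counts per 100 Trbc counts in Tc22 cells. No Tc22 library overlapped those with CoA in this ratio.

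The other genes of the receptor complex and its assembly were followed as a list of 16, of which 14 passed the filter. With CoA, 1 was called higher and 5 lower, beside 24.5% of all rows. Cd3e, Cd3d and Cd3g, the CD3 chains that bring the receptor to the surface and signal from it, were all among the lower. So were Themis, a regulator of receptor signalling, and Cd28, the costimulatory receptor. Cd3d stood at 239, 285 and 318 CPM in Tc0 cells and at 177, 127 and 183 CPM with CoA, without overlap. It fell by 0.79 ± 0.14 (edgeR adjusted p = 0.00616), also without any one library, but not without all libraries of mouse 728 (adjusted p = 0.0565). Cd3e changed by -0.72 ± 0.13 (adjusted p = 0.00598), a call that ended with no block (0.0662) and without all libraries of mouse 728 (0.06). Cd28, whose call held without any one library, changed by -0.90 ± 0.15 (adjusted p = 0.00496).

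The edgeR calls of Cd3g and Themis ended without Tc0 725, CoA 725 or CoA 728, and that of Cd3g also without Tc0 728 (adjusted p from 0.0515 to 0.12 and from 0.0516 to 0.079). Ptcra, the partner of the beta chain in the thymus, was the gene called higher, at 0.0958 to 1.99 CPM. Its call ended without Tc0 715, Tc0 725, CoA 725 or CoA 728 (0.0846 to 0.151), and with no block (0.144). Rag2, part of the recombinase that joins the segments, was at 0 in all 9 libraries, and Rag1 had 2 counts in 1 library. In Tc22 against Tc0, 1 of the 14 was called higher and 0 lower, beside 3.68% of all rows called (2.48% higher). It was Trat1, an adaptor bound to the receptor complex, at 21.0, 46.7 and 38.8 CPM against 7.89, 13.2 and 6.79 CPM (1.92 ± 0.28, adjusted p = 0.00507). Against Tc0+CoA, Tc22 cells had 8 of the 14 called higher and 2 lower, beside 32% of all rows. Of the 8 calls, 3 held with no block, 4 without CoA 725, CoA 728 or Tc22 725, 5 without Tc22 728 and 4 without all libraries of mouse 728. The 2 lower were Lat, an adaptor of receptor signalling, and Ptcra. Neither held with no block or without all libraries of mouse 728, and that of Lat ended without any 1 of the CoA libraries, Tc0 715, Tc0 725, Tc22 715 or Tc22 728 as well. The CD8 coreceptor gene Cd8a showed no called change in either comparison with Tc0, at 646 to 859 CPM.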

How the data were processed

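Per the labels' protocols, total RNA was depleted of ribosomal RNA and made into stranded libraries read from both ends. The authors deposited whole-number counts per gene in a table of 9 libraries, and single files that repeat its columns. STAR 2.5.2, RSEM 1.3.0, GRCm38 and mm10 are named in the submitters' processing notes, with no role. How reads that map to several genes were treated, the strand setting and any rounding are unknown from the sources used here.

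EdgeR 4.0.16 (R 4.3.3, TMM scaling, filterByExpr by group, quasi-likelihood F test) was run on all 9 libraries and the 15348 rows that passed. The fit had terms for group and mouse and 4 residual degrees of freedom. A row could pass with a count of 0 in a library, as Trbv16 did. The threshold was 0.05 after Benjamini-Hochberg adjustment over every row. Other fits took class sums (15309 rows), family sums (15339 rows) or V rows scaled by the V counts of their chain in place of the receptor rows. A standard error is the size of the log2 fold change over the root of F. Genes were annotated from GENCODE M21 (GRCm38). DESeq2 1.42.0 and other settings served as alternatives.

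Mouse is a block because the design text has each animal giving every population. As a check, deviations from group means were correlated between libraries over all 15348 rows tested, not over receptor rows alone. Within a mouse r ran from 0.0709 to 0.762 (mean 0.464, 9 pairs), and otherwise from -0.696 to 0.316. Such deviations sum to 0 over the 3 mice of a group. The values between mice are thus pushed below 0 and are no independent contrast. CoA 725 had r of 0.234 with Tc0 725 and 0.0709 with Tc22 725. With mouse 715 these were higher (0.316 and 0.203), and with mouse 728 lower (-0.397 and -0.339). In simulated counts of 15348 genes with changes in the CoA group, 79% of 2-fold and 95% of 4-fold changes were recovered, with 6 false calls. The simulation gave every gene the same biological spread and no mouse effect, and drew the changed genes from all rows that passed the filter. Its figures thus do not carry over to low V rows or to smaller changes. The p-values rest on the spread left after the group and mouse terms, with estimates of spread shared among rows. They do not measure the spread between animals, of which there were 3.

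The members and lists were chosen with earlier results of these data known. By rule the text names all constants, the 6 leading V segments of each chain, Trav11, Trav11d and Trav1, and per comparison up to 6 called rows (ties included) and families a direction, by smallest p. Other segments named, such as neighbours and relatives, were picked after their values were seen.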

Additional observations from a re-analysis of the deposited data

How the results depend on the processing

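With no replicate block, in fits without the mouse term, the tested rows called lower with CoA went from 9 to 2, the families from 7 to 3 and the class sums from 5 to 2, while those higher in Tc22 than with CoA went from 10 to 4 for rows and from 9 to 4 for families. Of the receptor complex list, 3 of the 8 genes higher and 0 of the 2 lower in Tc22 than with CoA held without it, and 0 of the 1 higher with CoA. For rows, families, class sums and shares, dropping the block moved no other count of calls by more than 1.5 times. In DESeq2, the rows higher in Tc22 than with CoA numbered 5 and the families 5, and with the compared groups only the rows numbered 6. With V rows scaled by their chain's V counts, 0 of 42 V rows were called, so that of the 47 rows 2 remained lower with CoA and 2 higher in Tc22 than with CoA, the unscaled constants Trac and Trdc in both. With CoA, 23 of the 42 V rows turned from below to above 0, among them 2 of those called before scaling, Trbv13-3 to 0.018 (adjusted p = 0.945) and Trav21-dv12 to 0.13 (adjusted p = 0.711). In Tc22 against Tc0+CoA, 26 turned from above to below 0. This setting removes by construction a change common to the chain. Without all libraries of mouse 728, chosen after seeing the data, 1 row was lower with CoA, and 3 were higher and 0 lower in Tc22 than with CoA.

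Leaving out each library in turn gave 1 to 11 rows, 2 to 9 families and 2 to 5 class sums lower with CoA. For Tc22 against Tc0+CoA it gave 3 to 16 rows, 2 to 10 families and 3 to 5 class sums higher, and 0 to 1 row lower. No row, class sum, family or share was called in Tc22 against Tc0 under any of these. Median-of-ratios size factors, library size alone and no filter on low counts left each of these counts within 1.5 times. The causes of the lost calls were not tested. Trdv counts of 129 to 361 per library and V rows under about 1 CPM limit what can be seen of single segments, and 127 members were too low to test as rows.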
